A study of Mus musculus with 13 samples.

Results

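Of the 13 chromatin accessibility libraries of the series, 7 came from telencephalon oligodendrocyte progenitor cells (OPCs) and are described here: 4 labelled K27M (cultures 41, 51, 59 and 61) and 3 labelled control (cultures 51, 59 and 61). They were chosen by region and genotype alone. The mice were AMGFAP-Cre;K27M litters aged postnatal days 5 to 7. In K27M animals, Cre, driven by a GFAP promoter that is active in neural stem and progenitor cells, removes a loxP-flanked stop cassette from the endogenous H3-3a locus (H3f3a in the annotation used here), so that histone H3.3 carrying lysine 27 to methionine is expressed. The controls were littermates. The study's single-cell methods describe such controls as lacking Cre and keeping the stop cassette, and the labels do not say which alleles the control cultures carried. Dorsal telencephalon (cortex, hippocampus and corpus callosum, titled cortex in the labels) was pooled over animals of 1 genotype, so a culture is a pool and not 1 mouse. All cultures were depleted of endothelial cells and microglia on lectin, panned on antibody to PDGFRα, grown in proliferation medium, not differentiated, and assayed by Omni-ATAC, in which a transposase cuts accessible DNA. Cultures 51, 59 and 61 gave both genotypes.

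Histone H3 lysine 27 is the residue that Polycomb repressive complex 2 methylates, and K27M histone inhibits that complex, so that trimethylation falls over most of the genome while some sites keep it. OPCs are the dividing, PDGFRα-positive glial cells that give rise to myelinating oligodendrocytes. In a bulk culture, fewer cells of a type and lower accessibility per cell cannot be told apart. An ATAC peak marks a stretch with more transposase cuts than its surroundings, mostly at promoters and enhancers.

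The deposited values are peaks called separately in each library, with a fold enrichment over the local background (a linear ratio) and a p-value per peak. Read depth is not in these files, so a peak that is not listed in a library was not called there and need not be closed. The K27M libraries held 39038, 52164, 30248 and 42238 peaks in cultures 41, 51, 59 and 61, and the control libraries held 36054, 16879 and 45322 in cultures 51, 59 and 61. The control library of culture 59 stood apart, with fewer peaks than the other 6, and the counts below are therefore also given without it and with every list reduced to its 16879 most significant peaks (equal number). That reduction kept peaks down to a −log10 p of 3.44 in control culture 59 and 9.15 in K27M culture 51. Peaks of the 7 lists that touched were joined into 78068 merged peaks, of which 14065 were found in all 7 libraries. A promoter is the window from 2 kb before to 1 kb after any start site of a gene, and a merged peak outside every such window is called distal.

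Most OPC marker promoters had a peak in every library. All 18 OPC marker promoters had a peak in at least 1 library and 14 (77.8%) had one in all 7. Over the 21951 protein-coding genes the share with a peak in all 7 was 43.1%, and 32.9% had a peak in none. Lists that are not OPC markers reached as high a share in all 7 or a higher one. It was 96.2% of cholesterol and fatty acid synthesis genes and 85.7% of cell cycle genes. Near the OPC share were 76.9% of Polycomb and H3.3 genes and 75% of axon guidance and synapse genes. Of 11 microglial marker promoters, 8 (72.7%) had a peak in none of the libraries and none had one in all 7. Of 7 endothelial ones, 3 (42.9%) had a peak in none and none in all 7. The endothelial share in none was not far from the 32.9% of all protein-coding genes. Among the astrocyte markers 4 of 10, and among the neuronal markers 3 of 11, had a promoter peak in all 7. All 10 astrocyte markers, like the OPC markers, had one in at least 1 library. Peaks were found at 14 to 17 OPC marker promoters per library in controls and 16 to 18 in K27M, and at 0 to 2 microglial ones in controls and 1 to 3 in K27M.

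**Figure D1:**
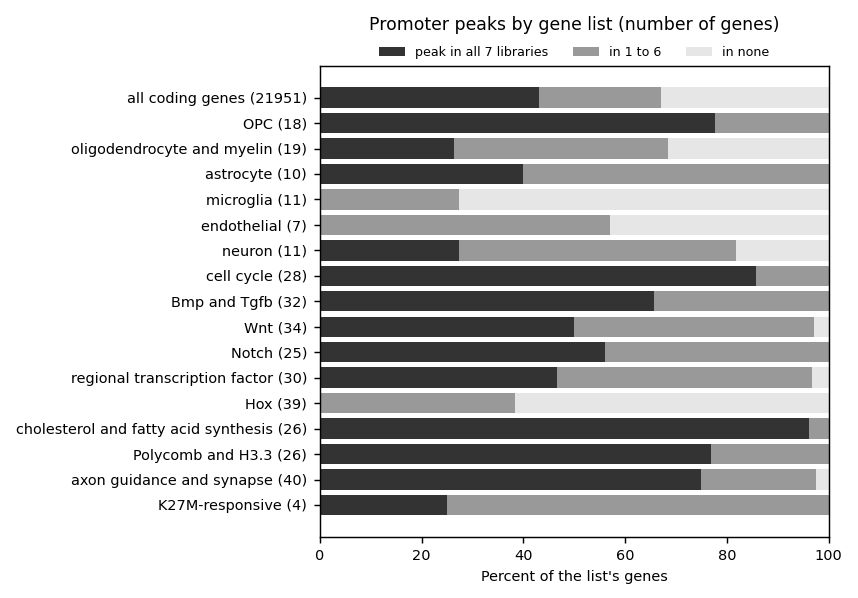
For all protein-coding genes and for each gene list (number of genes in brackets), the bars give the percent of genes whose promoter had a peak in all 7 telencephalon libraries (black), in 1 to 6 (grey) or in none (light grey). OPC, cell cycle and cholesterol synthesis genes had peaks in most libraries, and the microglial and Hox lists had few.

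At the locus of the knocked-in allele, every library had a promoter peak. The fold at H3f3a, which encodes H3.3, was 2.76, 3.66, 3.32 and 2.84 in K27M cultures 41, 51, 59 and 61, and 3.10, 2.58 and 3.97 in control cultures 51, 59 and 61. The K27M values lay inside the range of the controls, so the locus does not tell the genotypes apart in these peaks.

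The strongest peak called in every K27M library and in no control library lay in Prm1, the protamine gene that packs DNA in sperm. Its fold was 5.75, 4.96, 4.6 and 5.81 in K27M cultures 41, 51, 59 and 61, and no control library listed a peak there. Each stood at or above the 96.4th percentile of the folds in its own list. The peak did not reach the start site of the short Prm1 transcript. It ended 180 to 238 bases inside that transcript and ran 72 to 111 bases past its 3′ end, and chr16:10796254-10796648 (395 bases, GRCm38) was covered in all 4. Prm2 was counted with it because the peak lies within 2 kb before the start of Prm2. The study's methods name the Prm1 promoter as part of the Cre construct, and the study dropped Prm1 from its single-cell K27M signature as an artifact of that construct. Whether this peak comes from the construct or from the endogenous gene was not tested. The stretch of 162 bases covered in all 4 K27M libraries and lying between the untranslated ends, chr16:10796487-10796648 on the minus strand of GRCm38, is shown because it is the coding and intronic part of the peak, with coding bases in capitals and the intron in lower case:
Prm1 gene body: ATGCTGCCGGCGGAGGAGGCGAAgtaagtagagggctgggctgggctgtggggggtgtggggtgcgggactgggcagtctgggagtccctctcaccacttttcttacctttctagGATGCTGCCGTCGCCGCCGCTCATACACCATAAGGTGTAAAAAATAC

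Beyond Prm1, few promoters were called in 1 genotype only. In the whole lists, 8 protein-coding promoters had a peak in all 4 K27M libraries and in none of the 3 controls, 1.84% of the 435 promoters found in exactly 4 libraries. On the control side the count was 0 of the 411 found in exactly 3 (0%). Two-sided Fisher's exact tests over these 846 promoters gave no adjusted p under 0.05. The smallest p that 4 against 3 can give is 0.0286, which these 8 reached, and the smallest adjusted p was 1. With that floor, an adjusted p under 0.05 would need most of the tested promoters to separate. The lack of calls, here and at equal number, therefore does not decide whether single promoters differ.

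The 8 genes shared 6 peaks. Besides Prm1 and Prm2 they were Gjc1 (connexin 45, a gap junction protein), Nod2 (a sensor of bacterial cell wall fragments), Tmem132d (a membrane protein), Cln3 and Apobr, which share 1 peak (a lysosomal membrane protein and a lipoprotein receptor), and Jmjd8 (a Jumonji-domain protein). In K27M cultures 41, 51, 59 and 61 the fold at Gjc1 was 2.42, 2.55, 2.82 and 2.44, and at Nod2 it was 2.51, 2.34, 2.65 and 2.68. At Tmem132d it was 2.35, 2.55, 2.76 and 2.49. At Cln3 and Apobr it was 2.45, 2.08, 2.67 and 2.52, and at Jmjd8 it was 2.03, 2.24, 2.17 and 2.12. All of these were weak peaks. Their mean percentile within the K27M lists ran from 2.25 at Jmjd8 to 23.4 at Gjc1, and none of them was kept in any library when the lists were reduced to equal number.

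**Figure D2:**
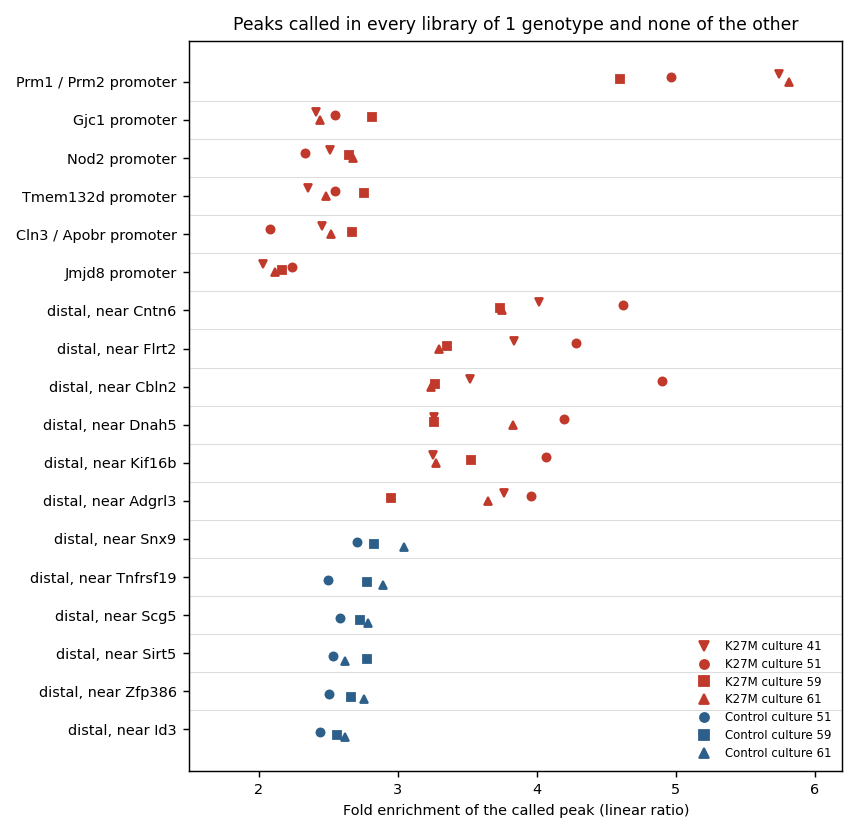
Fold enrichment (linear ratio, x axis) of each peak called in all libraries of 1 telencephalon genotype and none of the other, in the whole lists, 1 point per library (red K27M, blue control, symbol by culture). The Prm1 peak stands between 4.6 and 5.81, the other K27M promoters between 2.03 and 2.82, the named K27M distal peaks between 2.95 and 4.90, and the control distal peaks between 2.44 and 3.05.

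When each list was reduced to the same number, the promoter calls were even between the genotypes. The K27M side had 20 of the 633 promoters found in exactly 4 libraries (3.16%) and the control side 19 of the 613 found in exactly 3 (3.1%), with a smallest adjusted p of 0.913 by Fisher's exact test over 1246 promoters. Of the promoters that separated in the whole lists, Prm1 and Prm2 also separated here. Without control culture 59, the counts were 10 on the K27M side and 21 on the control side in the whole lists, and 35 and 50 at equal number.

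**Figure D3:**
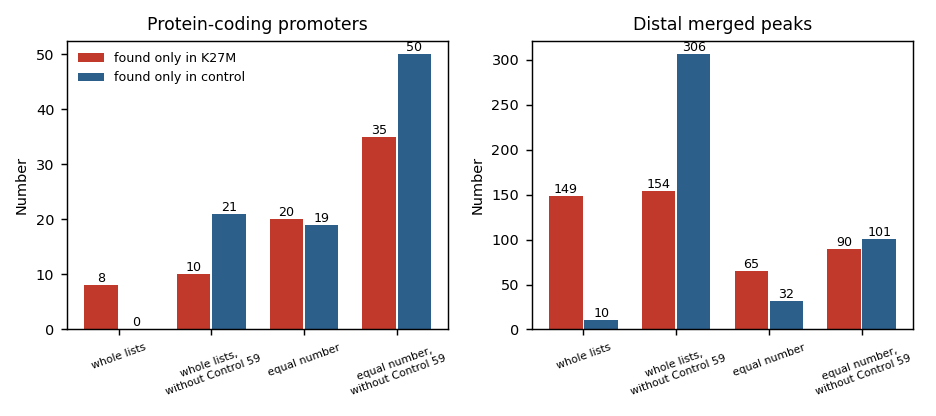
Number of protein-coding promoters (left) and distal merged peaks (right) found in all K27M and no control libraries (red) or in all control and no K27M libraries (blue), for the whole lists and at equal number, with and without control culture 59. In the whole lists the K27M side is larger with that library (8 against 0 promoters, 149 against 10 distal peaks) and the control side is larger without it (10 against 21, 154 against 306).

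After Prm1 and Prm2, the K27M-side promoters at equal number with the highest mean percentile were Nom1 (a nucleolar protein), Slc16a9 (a monocarboxylate carrier), Cd14 (a co-receptor for lipopolysaccharide), Rgr (a retinal opsin), Unc119b (a lipid-binding trafficking factor), Slc39a8 (a metal ion importer) and Stk32b (a kinase). Mcts2, Eefsec (which delivers selenocysteine to ribosomes), Dirc2, Hspbap1, 1700017B05Rik and Pick1 (a scaffold for glutamate receptors) followed. Apart from Prm1 and Prm2, all of these had a peak in the whole lists of control cultures 51 and 61 and none in control culture 59. At Nom1, on chromosome 5 at 29434664 to 29457843, the fold in K27M cultures 41, 51, 59 and 61 was 3.48, 4.32, 3.21 and 3.44, and in control cultures 51 and 61 it was 2.83 and 3.36. At Slc16a9 it was 3.49, 3.73, 3.28 and 3.23 in K27M and 2.57 and 3.37 in control. At both genes the fold of control culture 61 lay within the K27M range and that of control culture 51 below it.

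The 15 control-side promoters at equal number with the highest mean percentile began with Isl1 (a LIM homeodomain factor), Zfp780b, Nploc4 (a cofactor of the p97 unfoldase), Rai14, Entpd5 and Bbof1, which share 1 peak, and Sim1 (a bHLH-PAS factor). They went on with Fam114a1, Creg2, Tsr3, Gnptg (a subunit of the enzyme that tags lysosomal proteins), Rictor (a subunit of mTOR complex 2), Atl2 (which shapes endoplasmic reticulum), Gata6 (a zinc-finger factor) and Rint1. At Isl1, on chromosome 13 at 116298281 to 116309689, the fold was 3.02, 2.93 and 3.99 in control cultures 51, 59 and 61. In K27M it was 2.51, 3.60 and 2.94 in cultures 41, 51 and 61, and culture 59 listed no peak. At Sim1 it was 2.93, 2.65 and 3.45 in control, and 2.65, 2.92 and 2.39 in K27M cultures 41, 51 and 61, again with none in K27M culture 59. At Zfp780b all 7 libraries had a peak, at 2.82, 3.13 and 3.60 in control and 2.84, 3.61, 2.78 and 2.99 in K27M. Each of these 15 promoters had a peak in 3 or 4 of the K27M libraries when the lists were whole.

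Away from promoters, the difference in number was larger in the whole lists and again moved with control culture 59. Of 3982 distal merged peaks found in exactly 4 libraries, 149 were the 4 K27M libraries (3.74%), and of 4640 found in exactly 3, 10 were the 3 controls (0.216%). At equal number the counts were 65 of 1027 (6.33%) and 32 of 1283 (2.49%), and without control culture 59 they were 154 and 306 in the whole lists and 90 and 101 at equal number. Fisher's exact test gave no adjusted p under 0.05, with a smallest of 1 over 8622 distal peaks in the whole lists and 0.680 over 2310 at equal number. A call would again need most of the tested peaks to separate, so this too does not decide whether single peaks differ. Of the 149 K27M-side peaks, 78 were intergenic and 53 lay in introns of protein-coding genes, and their median distance to a protein-coding start site was 50994 bases.

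The K27M-side distal peaks with the highest percentiles were intergenic in all 6 cases named. The first was at chr6:104872014-104873083, 378766 bases from the nearest start site, that of Cntn6, which encodes a neural adhesion molecule. Its fold was 4.02, 4.62, 3.74 and 3.75 in K27M cultures 41, 51, 59 and 61, with no peak in any control. In brainstem the same place had a peak in none of the 3 K27M and in 2 of the 3 control libraries. The second, at chr12:96362581-96363562 and 667224 bases from Flrt2 (an adhesion and guidance protein), had 3.83, 4.28, 3.36 and 3.3. The next 4 were nearest to Cbln2 (a synapse organiser, 45110 bases), Dnah5 (an axonemal dynein, 436345 bases), Kif16b (a kinesin, 157124 bases) and Adgrl3 (a latrophilin, 991387 bases). Their folds ran from 2.95 to 4.90.

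The control-side distal peaks named here were weaker, but they are the top 6 of 10, and those of K27M the top 6 of 149. Over all peaks of each side, the median of the mean percentile was 40.3 for K27M and 26.4 for control. At equal number these medians were 49.2 and 32.2. The first control-side peak, at chr17:5813552-5814299 and 27030 bases from Snx9 (a sorting nexin of endocytosis), had a fold of 2.70, 2.83 and 3.05 in control cultures 51, 59 and 61. The second, at chr14:60934395-60935643 and 40242 bases from Tnfrsf19 (a receptor of the TNF family), had 2.5, 2.78 and 2.89. The others named were in an intron of Scg5, over an exon of Sirt5 (a mitochondrial deacylase), and nearest to Zfp386 and Id3 (an inhibitor of bHLH factors), with folds from 2.44 to 2.79. No K27M library listed any of the 6.

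The middle 200 bases of the first 2 distal peaks of each genotype are shown because they are the strongest called in 1 genotype only, on the plus strand of GRCm38. They are chr6:104872449-104872648 (Cntn6), chr12:96362972-96363171 (Flrt2), chr17:5813826-5814025 (Snx9) and chr14:60934919-60935118 (Tnfrsf19). Capitals mark matches, on either strand, to any of 8 short motifs: AP-1 (TGANTCA), SOX (AACAAT), the NFI site TTGGCA, an E-box (CAGCTG), TEAD (GGAATG), ETS (CCGGAAG), NRF1 (GCGCATGC) and the CCAAT box:
Cntn6 distal peak: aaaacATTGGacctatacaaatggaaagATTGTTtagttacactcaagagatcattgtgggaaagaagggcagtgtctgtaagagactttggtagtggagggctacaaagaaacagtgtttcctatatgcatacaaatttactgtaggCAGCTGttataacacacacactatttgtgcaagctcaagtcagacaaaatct
Flrt2 distal peak: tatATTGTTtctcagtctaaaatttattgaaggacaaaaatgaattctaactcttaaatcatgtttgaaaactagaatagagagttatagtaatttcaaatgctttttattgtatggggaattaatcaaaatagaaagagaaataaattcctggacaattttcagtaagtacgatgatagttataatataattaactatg
Snx9 distal peak: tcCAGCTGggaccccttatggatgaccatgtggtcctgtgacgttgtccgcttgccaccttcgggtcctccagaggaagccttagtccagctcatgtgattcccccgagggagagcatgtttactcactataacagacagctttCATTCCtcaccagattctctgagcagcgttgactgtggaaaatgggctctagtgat
Tnfrsf19 distal peak: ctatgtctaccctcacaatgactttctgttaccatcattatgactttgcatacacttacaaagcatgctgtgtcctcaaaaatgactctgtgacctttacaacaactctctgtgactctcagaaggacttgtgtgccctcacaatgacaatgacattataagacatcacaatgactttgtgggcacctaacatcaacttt
The Cntn6 stretch held a SOX, an E-box and a CCAAT match, the Flrt2 stretch a SOX match, the Snx9 stretch an E-box and a TEAD match, and the Tnfrsf19 stretch none.

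Over 300-base windows at the middle of each peak, the letters of the 149 K27M-side distal peaks were compared with the rest. Their median GC content was 46.0%, and that of the 8612 distal peaks found in 3 or 4 libraries on assembled chromosomes was 46.7%. An E-box was present in 30.2% of them and in 22.0% of that background, a SOX match in 18.1% and 16.9%, and an AP-1 match in 9.40% and 11.5%. In the 4623 distal peaks found in all 7 libraries, an E-box was present in 29.4%, SOX in 15.2% and AP-1 in 12.1%. The E-box share of the K27M side was thus close to that of peaks found in every library. Of the 10 control-side peaks in the whole lists, 40% held an E-box, 40% AP-1 and 0% SOX. At equal number an E-box was in 41.5% of the 65 K27M-side peaks, 18.8% of the 32 control-side peaks and 28.2% of 2305. AP-1 was in 9.23%, 25.0% and 14.7%, and SOX in 9.23%, 12.5% and 17.9%. The order of the genotypes for the E-box was thus not the same in the whole lists and at equal number, and the K27M side held SOX above the background share in the first and below it in the second. These shares are descriptions of the letters, and no test was made of them.

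Where all 7 libraries had a peak, the strength of peaks did not differ between genotypes past the test. Each library's folds were turned into percentiles over the shared peaks, so that 0 is the weakest and 100 the strongest peak. Limma, with culture as a block, called none of the 14065 shared merged peaks at an adjusted p under 0.05 (0%), and 574 had an unadjusted p under 0.05 (4.08%), 275 of them higher in K27M. At equal number none of 9692 was called (0%), with 377 at an unadjusted p under 0.05. Of the 9461 protein-coding promoters found in all 7 libraries, limma called none (0%) and 357 had an unadjusted p under 0.05, and at equal number it called none of 7196 (0%), with 276. The smallest adjusted p was 0.964 for peaks and 0.988 for promoters in the whole lists. Log2 values in place of percentiles gave 0 calls with 707 peaks and 456 promoters at an unadjusted p under 0.05.

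The spread behind these tests was wide. The median 95% confidence interval of a peak's difference reached 26.1 percentile points to either side, while the median absolute difference between group means was 7.0 points and 95% of peaks differed by less than 24.0. Across the 14065 peaks, percentiles correlated with a mean Pearson's r of 0.723 between pairs of K27M libraries, 0.696 between pairs of controls and 0.712 between genotypes, a description across peaks that are not independent. The median difference was 0.10 points over 9418 promoter peaks and -0.29 over 4647 distal ones. An unadjusted p under 0.05 was found at 340 of the promoter and 234 of the distal peaks, and whether the 2 kinds differ was not tested.

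**Figure D4:**
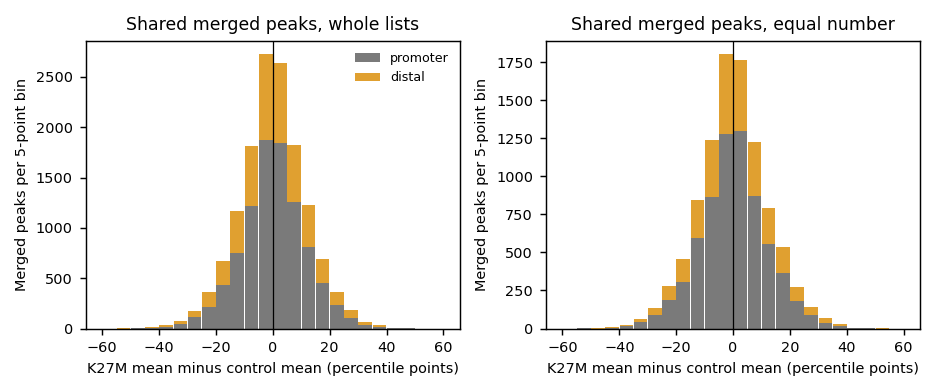
Difference in mean percentile, K27M minus control, over the merged peaks found in all 7 libraries (x axis, percentile points, 5-point bins, y axis number of peaks), stacked by promoter (grey) and distal (yellow), for the whole lists (14065 peaks) and at equal number (9692). Both distributions are centred near 0, and in the whole lists 2 distal and no promoter peaks lie below -50 points.

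The groups failed to overlap at 358 shared peaks with every K27M library above every control (2.55%) and at 412 with every K27M library below (2.93%). At equal number these were 237 (2.45%) and 247 (2.55%). Over the shared promoters they were 236 (2.49%) above and 266 (2.81%) below, and at equal number 163 (2.27%) and 184 (2.56%). The genes named next are the 8 per direction with the largest difference among these. Since they were taken for their size, their values are a description, and the adjusted p of each was 0.988 by limma.

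The promoter of Cct2, a subunit of the chaperonin that folds actin and tubulin, had the largest of these differences upward. Its fold was 3.66, 4.53, 4.17 and 3.44 in K27M cultures 41, 51, 59 and 61, and 2.73, 2.44 and 3.74 in control cultures 51, 59 and 61. In percentiles it stood at 65.5, 73.5, 86.4 and 54.1 in K27M and at 18.6, 10.6 and 44.3 in control, so every K27M library ranked it above every control although the folds themselves overlapped. The difference was 45.4 points (K27M 69.9 ± 13.6, SD, n = 4, control 24.5 ± 17.6, n = 3), with a blocked estimate of 46.9 ± 16.3 (SE). Gfpt2, which makes the hexosamine used for glycosylation, ranked at 83.5, 68.6, 48.6 and 57.6 in K27M and at 27.8, 9.02 and 28.6 in control. Rfx2, a transcription factor of ciliated cells, ranked at 78.6, 52.2, 70.5 and 79.0 against 26.2, 40.7 and 21.4.

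The other 5 higher in K27M were Dynll1 (a dynein light chain), Dmwd, Aspscr1 (a regulator of glucose transporter retention), Spr (sepiapterin reductase, of tetrahydrobiopterin synthesis) and Rab5c (a GTPase of early endosomes). Their differences were 38.5, 37.2, 36.2, 36.0 and 36.0 points. Without control culture 59 the blocked estimate went from 46.9 to 30.4 at Cct2, from 37.3 to 19.2 at Dynll1, from 40.7 to 19.4 at Aspscr1, from 34.3 to 20.5 at Spr and from 33.5 to 13.4 at Rab5c. Without its partner, K27M culture 59, it was 21.3 at Dynll1, 21.3 at Aspscr1 and 14.4 at Rab5c. In all 8, control culture 59 had the lowest or, at Rfx2, the highest control value.

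The promoter of Drd1, the D1 dopamine receptor, had the largest of these differences downward. Its fold was 3.56, 3.63, 2.89 and 2.77 in K27M cultures 41, 51, 59 and 61, and 3.51, 3.45 and 4.46 in control cultures 51, 59 and 61. In percentiles these were 59.9, 32.6, 16.8 and 17.4 against 68.3, 85.5 and 76.3. The difference was -45.0 points (K27M 31.7 ± 20.2, control 76.7 ± 8.57), with a blocked estimate of -54.4 ± 14.5. Erg, an ETS factor of endothelial cells, ranked at 43.5, 30.4, 14.1 and 13.3 in K27M and at 76.9, 67.1 and 65.8 in control. At Cyb5r1, a cytochrome b5 reductase, the ranks were 36.8, 48.5, 34.8 and 23.1 against 81.0, 95.6 and 59.6.

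The others lower in K27M were Acot9 (a mitochondrial thioesterase), Sf3b6 (a splicing factor subunit), Galnt17 (a glycosyltransferase), and Zkscan4 with Gm10065, which share 1 peak. Their differences were -39.0, -37.8, -37.8 and -37.4 points. When percentiles were taken over the whole lists, the blocked estimates of all 8 genes were smaller by over 1.5 times, among them -34.2 in place of -54.4 at Drd1, -19.6 in place of -42.6 at Galnt17 and -10.9 in place of -28.6 at Acot9. At Zkscan4 the values were tight, at 44.3, 41.2, 41.0 and 33.1 in K27M and 79.2, 71.5 and 81.1 in control. Of the 16 genes, Cct2, Gfpt2, Rfx2, Dynll1, Spr, Sf3b6 and Galnt17 were again among the largest at equal number. Drd1, Erg, Cyb5r1, Acot9, Zkscan4 and Gm10065 did not keep a peak in all 7 libraries at equal number and have no value there. In that setting the largest non-overlapping differences downward were at Galnt17 (-44.7 points), Eci2 (-43.9) and Bms1 (-43.5), and the largest upward was at Cct2 (46.0).

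**Figure D5:**
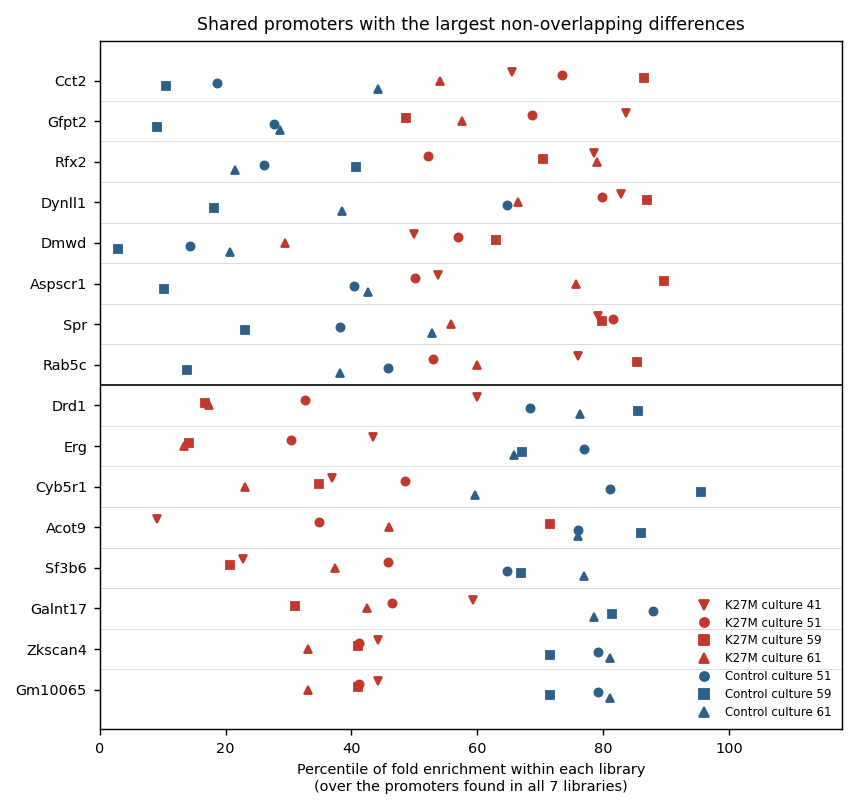
Percentile of promoter fold enrichment within each library (x axis, 0 weakest to 100 strongest, over the 9461 promoters found in all 7) for the 8 promoters per direction with the largest non-overlapping difference, 1 point per library (red K27M, blue control, symbol by culture). Above the black line every K27M point lies right of every control point, and below it left.

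The RefSeq promoters of Cct2 and Drd1 (250 bases before the start site, minus strand, GRCm38.p6) are shown as the top gene of each direction, at chr10:117063853-117064102 and chr13:54055659-54055908. Capitals mark the same motifs as before:
Cct2 promoter: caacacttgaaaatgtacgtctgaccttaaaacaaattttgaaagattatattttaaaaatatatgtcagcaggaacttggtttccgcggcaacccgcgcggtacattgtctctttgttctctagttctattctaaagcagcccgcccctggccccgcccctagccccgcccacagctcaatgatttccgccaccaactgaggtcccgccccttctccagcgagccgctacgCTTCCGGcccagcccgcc
Drd1 promoter: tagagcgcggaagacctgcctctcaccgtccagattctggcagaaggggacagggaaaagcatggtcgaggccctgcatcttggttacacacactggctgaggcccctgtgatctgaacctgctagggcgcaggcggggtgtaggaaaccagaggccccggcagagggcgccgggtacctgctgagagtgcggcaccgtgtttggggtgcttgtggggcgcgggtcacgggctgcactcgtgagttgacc
The Cct2 promoter held an ETS match, as did 6.91% of 32851 RefSeq promoters over the same 250 bases, and the Drd1 promoter held none of the 8 motifs. Their GC contents were 52.8% and 64.0%.

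Among shared distal peaks whose groups did not overlap, the largest difference upward was at chr17:65915578-65916666, 9743 bases from a start site of Twsg1, a secreted modulator of BMP signalling, and over an exon of the noncoding gene CT025659.1. Its fold was 3.82, 4.72, 4.02 and 4.17 in K27M cultures 41, 51, 59 and 61, and 2.73, 2.63 and 4.00 in control cultures 51, 59 and 61. In percentiles this was 76.4, 81.2, 83.9 and 86.4 against 21.1, 24.8 and 58.1. The peak at chr19:55577359-55579006 lay in an intron of Vti1a, a SNARE protein, with Tcf7l2 (a Wnt effector that acts in oligodendrocyte differentiation) the nearest start site at 162814 bases. It stood at 84.4, 72.7, 49.1 and 52.3 against 27.5, 24.5 and 22.8. Peaks 67061 bases from Kiz and 97804 bases from Mc3r (a melanocortin receptor) were the other distal ones, with differences of 43.1 and 38.8 points.

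In the whole lists the largest difference of all shared peaks was downward, at chr11:30243477-30244390 in an intron of Sptbn1, which encodes a spectrin of the membrane skeleton. Its fold was 2.99, 3.02, 2.83 and 2.82 in K27M cultures 41, 51, 59 and 61, and 3.49, 3.29 and 4.21 in control cultures 51, 59 and 61. Here folds and percentiles both separated, at 27.8, 11.5, 16.3 and 20.0 against 70.1, 79.7 and 67.6. The blocked estimate was -56.5 ± 13.9 points with an adjusted p of 0.964 by limma. The peak 9456 bases from Cdh11, a cadherin, stood at 11.9, 22.4, 21.6 and 34.9 against 56.4, 92.0 and 79.8. Peaks in introns of Tmem178b, of Gm20388 (nearest start site Klhdc4) and of Oxr1, an oxidation resistance gene, differed by -48.3, -46.0 and -43.3 points. The remaining shared peaks among the 8 per direction were promoters: those already named and those of Gm11734, with a difference of 45.2, and Gm1979, with -48.6. At equal number the largest difference was upward, at the Twsg1 peak (51.1 points). The largest downward among peaks whose groups did not overlap was then 22188 bases from Limch1 (-47.0 points).

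The middle 200 bases of the Twsg1 and Sptbn1 peaks, chr17:65916022-65916221 and chr11:30243834-30244033 on the plus strand, are shown as the top distal peak of each direction. Capitals mark the same 8 motifs:
Twsg1 distal peak: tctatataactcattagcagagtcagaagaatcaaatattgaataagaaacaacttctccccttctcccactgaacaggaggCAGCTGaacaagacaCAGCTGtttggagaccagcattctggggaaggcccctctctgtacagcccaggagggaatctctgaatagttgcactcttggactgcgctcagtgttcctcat
Sptbn1 distal peak: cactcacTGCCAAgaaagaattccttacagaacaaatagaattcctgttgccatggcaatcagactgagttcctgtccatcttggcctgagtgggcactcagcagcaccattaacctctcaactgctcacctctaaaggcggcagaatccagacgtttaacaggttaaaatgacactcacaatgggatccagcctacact
The Twsg1 stretch held 2 E-box matches and the Sptbn1 stretch 1 NFI match. An E-box was present in 29.4% and an NFI match in 20.8% of the 4623 shared distal windows.

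In the gene lists, no member of any list passed the adjusted test, and none separated in either setting. Against a median difference in group means of 0.020 points over all shared promoters, the 24 shared cell cycle promoters had 4.75, the 14 OPC promoters -2.93, the 25 cholesterol and fatty acid synthesis promoters 0.75 and the 20 Polycomb and H3.3 promoters 1.67. The 14 regional transcription factors had -3.42, with 11 lower and 3 higher in K27M, and the 30 axon guidance and synapse promoters had -4.33, with 19 lower and 11 higher. The 21 Bmp and Tgfb, 17 Wnt and 14 Notch promoters had -0.90, -2.06 and 0.096. The 5 oligodendrocyte, 4 astrocyte and 3 neuronal promoters had -1.34, -5.91 and 4.33, and of the 4 genes of the K27M-responsive list only the promoter of Pbx3 was shared, with -3.36. With culture as a block the median took the other sign for the Bmp and Tgfb list (0.16) and the cholesterol list (-0.26), and at equal number it did so for the regional factors (0.17 over 5 promoters), the astrocyte markers (14.2 over 2) and the Notch list (-0.18 over 12). None of the 39 Hox promoters had a peak in all 7 libraries, and 24 (61.5%) had one in none, against 32.9% of all protein-coding genes.

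Within the cell cycle list, 4 of 24 shared promoters (16.7%) had every K27M value above every control and 2 (8.33%) below, against 2.49% and 2.81% of all shared promoters. Cdkn1a, which encodes the cyclin kinase inhibitor p21, stood at 41.3, 22.3, 8.51 and 15.5 in K27M cultures 41, 51, 59 and 61 and at 2.25, 1.06 and 2.61 in controls. Top2a (topoisomerase of dividing cells) and Cdk4 were higher by 18.9 and 18 points. Ccne2, a cyclin of S phase entry, stood at 22.1, 7.46, 15.1 and 31.6 against 35.7, 71.7 and 38.2. Cdkn1b, which encodes p27, stood at 54.5, 57.5, 33.9 and 38.4 against 76.3, 79.9 and 60.1. The unadjusted limma p was 0.037 at Cdkn1a, 0.036 at Ccne2 and 0.0599 at Cdkn1b, and the adjusted p of each was 0.988.

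No glial or patterning gene passed the adjusted test, and the following values are descriptions. Gfap, an astrocyte filament, stood at 36.5, 48.0, 39.6 and 72.4 in K27M and at 19.4, 16.2 and 24.9 in control, while Gja1 (connexin 43) stood at 9.94, 24.1, 13.7 and 10.5 against 30.9, 33.5 and 30.4. These were 1 above and 1 below of the 4 shared astrocyte promoters (25% each), against 2.49% and 2.81% of all shared promoters. Otx1, a forebrain homeobox factor, stood at 0.53, 0.64, 0.57 and 0.38 in K27M and at 52.4, 2.28 and 6.67 in control, so that culture 51 alone set most of its difference. Lhx2, a LIM homeodomain factor of the cortex, stood at 21.9, 12.7, 29.5 and 25.7 against 44.6, 33.3 and 39.2. Sox6, which keeps OPCs undifferentiated, stood at 54.4, 55.9, 28.3 and 54 against 57.9, 65.9 and 64.7. Otx1 and Lhx2 were the 2 below of the 14 shared regional promoters (14.3%), and Sox6 the 1 below of the 14 shared OPC promoters (7.14%). The share below over all shared promoters was 2.81%, and neither list had a promoter above. Groups overlapped at Gpr17, Lhfpl3, Cbx7 and Efnb2, with differences of 18.4, -18.4, -20.2 and -27.5 points. Each had an adjusted p of 0.988 by limma.

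Promoters made up a similar part of the peaks in both genotypes once the lists were of equal size. In the whole lists the share of peaks at promoters was 39.6%, 34.0%, 46.1% and 38.1% in K27M cultures 41, 51, 59 and 61, and 41.7%, 58.5% and 37.6% in control cultures 51, 59 and 61. The difference was -6.47 points (two-sided exact permutation test over 35 arrangements, p = 0.429), and without control culture 59 it was -0.20. At equal number it was -1.16 points (K27M 57.8% ± 1.74, SD, n = 4, control 59.0% ± 0.553, n = 3, exact permutation p = 0.40).

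The brainstem libraries, which took no part in choosing the peaks, gave 3 K27M and 3 controls. Of the 186 telencephalon merged peaks that separated at any distance from genes, 33.3% were found more often in the same genotype in brainstem. On the K27M side 56 were found more often in the same genotype, 53 in the other and 64 equally often, and on the control side these counts were 6, 1 and 6. Over all 20 arrangements of the brainstem labels the mean share was 31.1%, close to the 33.3% observed. The one-sided exact permutation p was 0.40, and the smallest possible is 0.05. At equal number the share was 38.3% of 141, against a mean of 30.1% over the arrangements (exact permutation p = 0.15). At Prm1, all 3 K27M brainstem libraries and no control had the peak. Limma called none of the 13075 merged peaks found in all 13 libraries for a difference between regions in the K27M effect, with 551 at an unadjusted p under 0.05 and a smallest adjusted p of 0.993, so nothing is called particular to telencephalon.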

How the data were processed

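Libraries of telencephalon OPC cultures were grouped by GEO labels. Per the submitters' processing notes and the study's methods, the authors trimmed reads (Trim Galore 0.6.7), aligned them to mm10 with BWA 0.7.17-r1188 and called broad peaks per library with MACS2 2.2.7.1. The deposited lists give for each peak a fold enrichment (a linear ratio over local background) and a −log10 p-value. Neither reads nor depth were used here, and counting precision is therefore unknown. Differences in depth between libraries can change which peaks are called, and equal-number lists were made for that reason. Start sites were those of GENCODE M21, and sequence was read from GRCm38.p6, whose chromosomes hold every peak end. Found or not found was compared with two-sided Fisher's exact tests over features found in 3 or 4 of 7 libraries, and percentiles of fold with limma 3.58.1 (R 4.3.3, trended variance, culture as a block, Benjamini-Hochberg adjustment, threshold 0.05) over all shared peaks or promoters. A culture without its partner, K27M culture 41, does not inform the blocked difference. Scripts were tested on simulated data.

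The pairing comes from the culture numbers in the labels and from the study's methods, whose promoter tests account for matched cultures. The correlation of same-numbered libraries' deviations from their group means was 0.0777, 0.117 and 0.0468 for cultures 51, 59 and 61, and from -0.156 to 0.106 for differently numbered libraries. With culture as a block, the limma p-values of the telencephalon fits rest on the spread of the K27M minus control difference among cultures 51, 59 and 61. The spread between cultures is taken out by the block, and variance information is shared across features. Fisher's tests and the permutation tests treated libraries as exchangeable and took no account of shared cultures. With labels exchanged only within cultures 51, 59 and 61, the difference in promoter share was -6.53 points (exact permutation p = 0.50).

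Named genes were: all promoters that separated, up to 15 per genotype, and distal peaks, up to 6, by mean percentile; the 8 shared promoters and peaks per direction with the largest non-overlapping difference, since none passed the test; H3f3a and Prm1; and examples from 16 gene lists. The genes and lists were chosen with earlier results of these data known. The symbol Tmem10 of the oligodendrocyte list has no entry in the annotation. Alternatives were equal peak number, a stricter p-value, other windows and overlaps, other scales of fold, fits without the block and leaving out each library.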

Additional observations from a re-analysis of the deposited data

Results flagged for a closer look

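Of 31 values tested in the 4 K27M telencephalon libraries (peak numbers, promoter shares, peak width, the H3f3a and Prm1 folds and the named shared promoters and distal peaks), 1 had a library far from the other 3 by Dixon's criterion, which chance alone meets in about 1 of 20 groups. At the promoter of Spr the percentile was 55.8 in K27M culture 61, against 79.2, 81.6 and 79.7 in cultures 41, 51 and 59. The 3 control libraries were too few for this criterion. None of the 13075 merged peaks found in all 13 libraries had an adjusted p under 0.05 for a difference between regions.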

How the results depend on the processing

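The limma counts of shared peaks, shared promoters and differences between regions were 0 under every alternative run, including the fits without the replicate block (607 peaks and 401 promoters at an unadjusted p under 0.05), and the smallest adjusted p over all of them was 0.409, for promoters on the log2 scale. The 16 named shared promoters kept their direction in all 212 refits in which they could be measured, but not their size: without control culture 59 the blocked estimate at Rab5c was 13.4 in place of 33.5, and with percentiles over the whole lists that at Zkscan4 was -16.3 in place of -38.8. The difference in promoter share kept its sign (-10.6 to -0.20 leaving out 1 library), and the carry-over to brainstem ran from 28.0% to 55.4% with no p under 0.15. Counts of features found in 1 genotype depended on the processing. For promoters on the K27M and control side they were 20 and 19 at equal number, and 20 and 1 with the replicate block (cultures 51, 59 and 61 only). On the control side, 1 was found when 200 bp of the window had to be covered. For distal peaks they were 65 and 32 at equal number, 1 and 0 with a p-value of at most 1e-10, 311 on the K27M side with the replicate block, and 6 on the control side at 10 kb or more from any start site. Leaving out 1 library gave 8 to 143 and 0 to 21 promoters, and 154 to 926 and 10 to 306 distal peaks. The highest K27M-side counts were without control culture 61 (143 and 926), followed by K27M culture 59 (37 and 742), and the highest control-side counts were without control culture 59. Without control culture 51 the counts were 21 and 2 promoters and 305 and 43 distal peaks, without K27M culture 41 they were those of the block, and without K27M culture 51 the control side had 4 and 24. Leaving out a library drops 1 condition that a feature must meet. Added after seeing the data, equal number without control culture 59 gave 35 and 50 promoters and 90 and 101 distal peaks. Percentiles over the whole list instead of the shared peaks moved the median difference of all shared peaks to 5.17 points, with 376 of the 422 peaks at an unadjusted p under 0.05 higher in K27M against 275 of 574 otherwise. Peaks called in these lists limit what can be seen, and a region below a library's calling threshold cannot be told from a closed one.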

Other observations

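At equal number, some promoters of the gene lists were found mostly in 1 genotype without separating, chosen here after their values were seen, as those whose shares of K27M and control libraries differed by 0.6 or more. On the control side were Nkx2-2, a homeobox factor of the oligodendrocyte lineage, Dlx1 and Nr2f2, which pattern the forebrain, the Wnt receptor gene Fzd9 and the netrin receptor gene Dcc, each kept in 1 of the 4 K27M lists and in all 3 control lists. Neurog2, Gja1, Flt1, Tubb3 and Ccne1 were kept in 0 K27M lists and 2 control lists. On the K27M side were Wnt7a, Nrarp (a Notch feedback regulator) and Aldoc, each kept in all 4 K27M lists and 1 control list, and Maml3 (a Notch co-activator) in 3 K27M lists and no control list. In the whole lists, the 10 genes on the control side had a peak in all 3 controls and, apart from Flt1 with 3, in all 4 K27M libraries, and the 4 on the K27M side had one in all 4 K27M and 2 control libraries. None was tested apart from the fits across all genes. The share of all protein-coding promoters that meet this cut-off is not given here, so no excess in these lists can be read from the names. The equal-number lists also reached to different significance, down to a −log10 p of 3.44 in control culture 59 and 9.15 in K27M culture 51.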
